A study of Homo sapiens with 6 samples.

Results

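The matrix metalloproteinases (MMP), the ADAM and ADAMTS proteases and the tissue inhibitors of metalloproteinases (TIMP) were described in A375 cells, an established human melanoma line, sorted by aldehyde dehydrogenase (ALDH) activity. Members were the protein-coding genes whose symbol is MMP, ADAM, ADAMTS or TIMP followed directly by a number, with an optional final letter. This gave 66 of the 57914 genes in the deposited tables: 23 MMP, 20 ADAM, 19 ADAMTS and 4 TIMP genes. The cells had been grown in high-glucose DMEM with serum and stained with Aldefluor, a dye that turns fluorescent inside cells when ALDH enzymes convert it. The ALDH_High group held 3 libraries of cells in the top 5% of the signal and the ALDH_Low group held 3 libraries of cells in the bottom 5%. Both groups came from the same line, and no drug or genetic change is given for either. The labels do not say whether the replicates came from separate cultures or sorts, so the p-values measure only the spread between these libraries.

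MMPs and ADAMTS proteins are zinc-dependent enzymes that cut collagens, proteoglycans and other matrix proteins outside the cell. Most ADAMs sit in the membrane, where the active ones act as sheddases and release the outer parts of growth factors, receptors and adhesion molecules, while others have lost the zinc site and serve in adhesion. TIMPs bind the active site of these enzymes and block it; TIMP3 is held in the matrix and has the broadest range, which includes ADAM10, ADAM17 and several ADAMTS enzymes. In melanoma these genes are known for their part in invasion through dermal matrix and for the release of growth factor ligands.

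Total counts lay between 26692868 and 37830603 per library. Levels are given as CPM, counts scaled to a common library size by the TMM method, and TPM is used where genes are compared with each other, since it corrects for length. ALDH1A3, the ALDH gene named in the study's title, was higher in ALDH_High (log2 fold change, here log2 change, 1.32 with SE 0.19; adjusted p 0.000734, edgeR). ALDH_High library 1 stood apart from the other libraries of its group on the second principal component of log2 CPM (35.6 against -16.4 and -22.5), which carried 13.8% of the variance; results that rest on it are given with and without it. The 10 melanocyte lineage markers summed to between 526 and 595 TPM in ALDH_High and between 143 and 149 TPM in ALDH_Low. SOX10 made up most of this, with means of 397 and 111 TPM. Of the 7 tested, SOX10, S100B and S100A1 (3) rose and 2 fell. Those that fell were MITF (log2 change -0.92, edgeR adjusted p 0.00667) and SOX9 (-1.79, edgeR adjusted p 0.00344). SOX10 and S100B had at least 5835 and 18 counts in every library, while MLANA and TYR had at most 3 in any library. The pigment cell markers MLANA and TYR were thus at or near 0 in both groups. The 9 white blood cell markers summed to between 14.8 and 27.4 TPM in ALDH_High and between 50.5 and 63.9 TPM in ALDH_Low. CD68, a lysosomal protein that is not confined to blood cells, was the most abundant of them, and the defining markers PTPRC and CD3E had at most 4 and 2 counts in any library. Of the 4 tested, LYZ rose (log2 change 1.65, edgeR adjusted p 0.0240). CD68 (-1.86, edgeR adjusted p 0.000273) and CD14 (-1.96, edgeR adjusted p 0.0142) fell, CD14 with only 3 to 31 counts in any library. Fibroblast markers summed to between 11.8 and 14.8 TPM in ALDH_High and between 9.91 and 11.6 in ALDH_Low. Of the 5 tested, only PDGFRB passed the threshold, and it fell (log2 change -0.80, edgeR adjusted p 0.00693). Endothelial markers summed to between 3.12 and 3.18 TPM in ALDH_High and between 0.736 and 0.95 TPM in ALDH_Low. KDR made up most of the ALDH_High sum, with a mean of 2.57 TPM. It was the only 1 of the 4 endothelial markers tested to pass the threshold (log2 change 3.61, edgeR adjusted p 5.82e-05). Keratinocyte markers summed to between 98.5 and 131 TPM in ALDH_High and between 98.6 and 124 TPM in ALDH_Low. KRT10 made up most of this, with means of 95.6 and 100 TPM, while KRT1 and CDH1 were too low to be tested. Of the 3 tested, only KRT5 passed the threshold, and it fell (log2 change -3.63, edgeR adjusted p 0.000898). KRT5 was scarce, with 2 to 6 counts in ALDH_High and 32 to 108 in ALDH_Low. The part of other cell types in the results was not tested. In bulk RNA, fewer cells that express a gene and less RNA of it per cell cannot be told apart.

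Of the 66 members, 43 passed the filter on low counts and were tested, and 19 of them passed an adjusted p of 0.05 in edgeR's quasi-likelihood test, 15 higher and 4 lower in ALDH_High. That is 44.2% of the members tested, beside 20.6% of all 17047 genes tested (10.8% higher and 9.83% lower). The median log2 fold change was 0.36 over the members tested and -0.013 over all genes tested. The members' median was 0.16 without ALDH_High library 1, and 0.036 in limma on log2(TPM + 1) without a filter. These are descriptions, since the members were chosen with earlier results of these data known. A member can also pass the filter through the group where it is high: 8 tested members, of which ADAMTS8 and ADAMTS20 passed the threshold, did not reach the filter's level in every library of both groups. The groups did not overlap in 23 of the 43, beside 37.8% of all genes tested. By family, 4 MMPs rose and 1 fell among 13 tested, 4 ADAMs rose and 1 fell among 11, 5 ADAMTS genes rose and 2 fell among 16, and 2 TIMPs rose among 3. For a single gene, an exact two-sided permutation test of 3 against 3 libraries cannot go below p = 0.1, and all 19 members past the threshold reached that value.

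**Figure D1:**
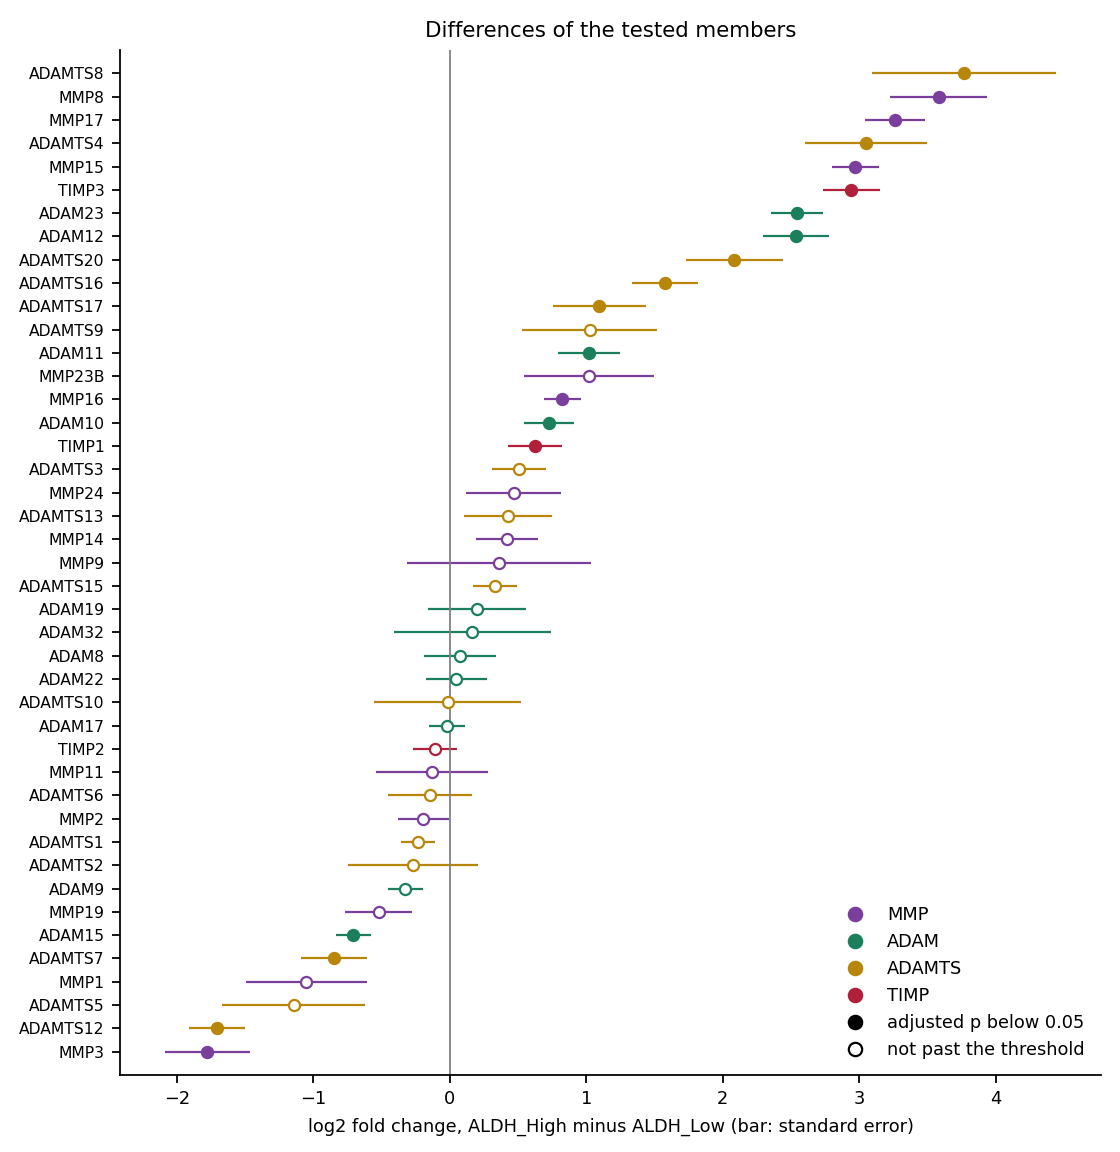
The x axis is the log2 fold change of each of the 43 tested members, ALDH_High minus ALDH_Low, with its standard error as a bar; colours mark the 4 families and filled points have an edgeR adjusted p below 0.05. ADAMTS8 (3.77), MMP8 (3.58) and MMP17 (3.26) lie at the high end, and MMP3 (-1.78) and ADAMTS12 (-1.70) at the low end.

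**Figure D2:**
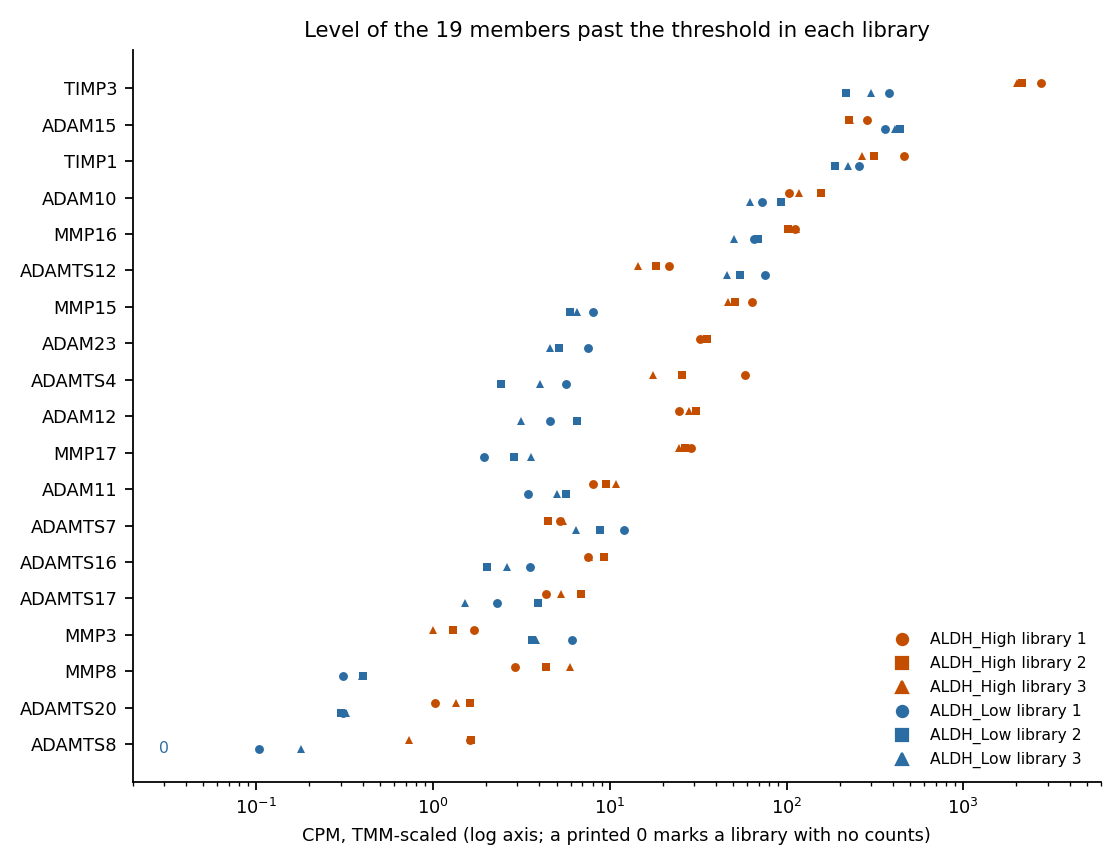
CPM (log axis) in each of the 6 libraries for the 19 members past the threshold, ordered by mean level, with orange for ALDH_High and blue for ALDH_Low. The groups do not overlap for any of the 19, and TIMP3 lies between 2014 and 2739 CPM in ALDH_High and between 218 and 378 CPM in ALDH_Low.

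TIMP3, the matrix-bound inhibitor, was the most abundant member in ALDH_High. It lies on chromosome 22 (ENSG00000100234, 32801705 to 32863041, plus strand; positions here and below are GENCODE 44 on GRCh38). The ALDH_High values, here and below in the order of libraries 1 to 3, were 2739, 2156 and 2014 CPM for TIMP3, and the ALDH_Low values 378, 218 and 301 CPM. Every ALDH_High library was more than 5-fold above every ALDH_Low library. The means were 2303 ± 384 and 299 ± 80.0 CPM (SD, n = 3), a log2 fold change of 2.94 (SE 0.21; adjusted p 1.26e-05, edgeR). On the TPM scale, TIMP3 ranked 191 among all genes in ALDH_High and 1795 in ALDH_Low. TIMP3 lies inside SYN3, a synapsin gene on the opposite strand, which had 48 to 90 counts in ALDH_High and 5 to 12 in ALDH_Low, against at least 6517 counts of TIMP3 in every library. Whether the counting used strand is not given in the sources used here.

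TIMP1, a soluble inhibitor of most MMPs, also rose, but by less. Its values were 459, 311 and 266 CPM in ALDH_High and 259, 188 and 224 CPM in ALDH_Low, so that the lowest ALDH_High and the highest ALDH_Low library nearly touched. TIMP1 (chromosome X, 47582408 to 47586789) had a log2 fold change of 0.63 (SE 0.20; adjusted p 0.0480, edgeR). The fit without ALDH_High library 1, the highest of the group, gave 0.38 and an edgeR adjusted p of 0.0760. It also missed the threshold without ALDH_High library 2 (0.71, edgeR adjusted p 0.0653), ALDH_Low library 2 (0.52, 0.167) and ALDH_Low library 3 (0.63, 0.139). With all libraries kept, TIMP1 lost the call under upper-quartile scaling and in limma on log2(TPM + 1). TIMP2, the inhibitor that also takes part in the activation of MMP2, had 138 ± 26.2 CPM in ALDH_High and 148 ± 23.9 in ALDH_Low (SD, n = 3; log2 change -0.11 with SE 0.16; adjusted p 0.696, edgeR). TIMP4 was too low to be tested: it had 22 counts over the ALDH_High libraries and 3 over the ALDH_Low libraries, a ratio of 7.51 per depth with an exact 95% counting interval of 2.26 to 39.2. Where low-count genes were kept in the fit, TIMP4 passed the threshold in edgeR (adjusted p 0.0354), but not in DESeq2 (adjusted p 0.139). That edgeR fit also gave far smaller adjusted p to members that were not scarce. ADAM10 had 1.77e-06 beside 0.0193 in the main fit, and ADAM12 had 2.31e-37 beside 7.09e-05 (all edgeR). A call gained only in that fit, here and below, is therefore weak evidence.

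The inhibitors thereby changed in make-up as well as in sum. TIMP3 made up 51.5 ± 2.80% of the summed TIMP TPM in ALDH_High and 16.4 ± 1.73% in ALDH_Low, while TIMP1 made up 44.6 ± 2.95% and 73.0 ± 1.19% (SD, n = 3). The summed TPM of the 4 inhibitors was 1652, 1339 and 1237 in ALDH_High and 658, 468 and 521 in ALDH_Low. The summed TPM of all MMP, ADAM and ADAMTS genes was 556, 550 and 530 in ALDH_High and 551, 564 and 484 in ALDH_Low, so that the protease sums overlapped between the groups and the inhibitor sums did not. The ratio of inhibitor to protease TPM was 2.58 ± 0.344 in ALDH_High and 1.03 ± 0.187 in ALDH_Low (SD, n = 3). The protease sum includes the ADAMs without a working zinc site, such as ADAM23 with means of 17.9 TPM in ALDH_High and 2.94 TPM in ALDH_Low. Without TIMP3 the ratios were 1.26 ± 0.242 and 0.862 ± 0.139, with the lowest ALDH_High library at 1.07 and the highest ALDH_Low library at 0.983. These sums describe RNA and say nothing of active enzyme, and no test was made on them.

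**Figure D3:**
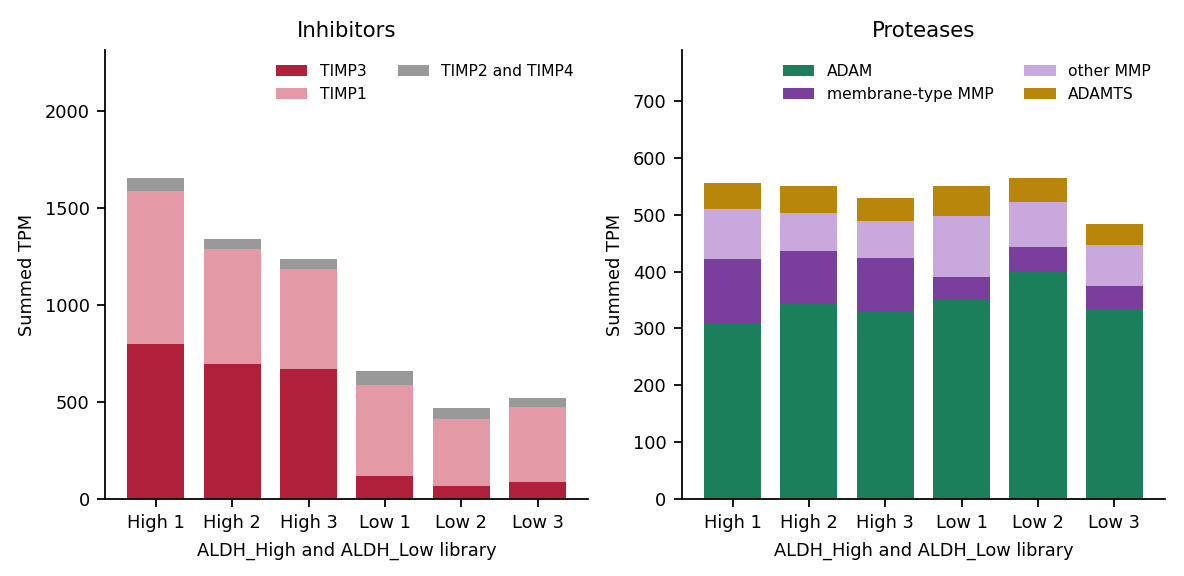
Stacked bars of summed TPM (y axis, from 0) in each library, for the inhibitors on the left and the proteases on the right. The protease bars hold all MMP, ADAM and ADAMTS genes, also the ADAMs without a working zinc site. The inhibitor bars stand at 1237 to 1652 TPM in ALDH_High and 468 to 658 TPM in ALDH_Low, with TIMP3 forming 51.5% and 16.4% of them on average, while the protease bars stand between 484 and 564 TPM in all 6 libraries.

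Upstream sequences of 3 of the members with large rises are shown because their RNA moved the same way while their promoters differ in base composition. They are the 250 bases before the RefSeq start site on GRCh38.p14, 5′ to 3′ on the strand of the gene. TIMP3 is at chr22:32801455-32801704 (plus strand), MMP15 at chr16:58025504-58025753 (plus strand) and MMP8 at chr11:102724955-102725204 (minus strand). Capitals mark the GC box letters CCGCCC, read on both strands, in TIMP3 and MMP15, and the TATA box letters TATAAA, read on both strands, in MMP8. These motifs were chosen after the sequences had been seen.
TIMP3: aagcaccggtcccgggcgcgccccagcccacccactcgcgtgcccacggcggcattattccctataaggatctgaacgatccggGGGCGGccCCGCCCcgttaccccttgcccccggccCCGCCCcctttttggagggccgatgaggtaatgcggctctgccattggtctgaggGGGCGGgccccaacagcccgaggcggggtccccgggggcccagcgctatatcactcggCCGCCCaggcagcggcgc
MMP15: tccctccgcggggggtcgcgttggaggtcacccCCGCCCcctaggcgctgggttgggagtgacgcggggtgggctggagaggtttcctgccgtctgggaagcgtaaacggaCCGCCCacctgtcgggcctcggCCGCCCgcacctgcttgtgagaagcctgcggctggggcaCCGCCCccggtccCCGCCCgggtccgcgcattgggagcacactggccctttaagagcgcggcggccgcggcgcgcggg
MMP8: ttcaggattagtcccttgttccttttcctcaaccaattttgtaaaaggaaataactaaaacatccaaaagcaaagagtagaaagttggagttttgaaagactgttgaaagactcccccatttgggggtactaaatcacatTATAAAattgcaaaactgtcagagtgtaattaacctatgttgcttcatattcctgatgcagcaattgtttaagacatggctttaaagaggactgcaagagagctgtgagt

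The TIMP3 and MMP15 windows each held 5 matches to CCGCCC, with GC contents of 72.4% and 74.8% and 26 and 31 CG dinucleotides. The MMP8 window held 0 CG dinucleotides, a GC content of 36.4% and 1 match to TATAAA, which begins 110 bases before the start. Of the 66 members, 39 had an entry in the RefSeq promoter table. CCGCCC was present in 26 of these 39 (66.7%) beside 42.6% of all 35116 windows of the same length, and TATAAA in 7 (17.9%) beside 10.7%. The sets are not alike: members are protein-coding and entered with 1 window per gene. The 35116 windows were not limited in this way and outnumber the 19779 protein-coding genes in the deposited tables. The median GC content was 68.4% over these 39 windows, beside 58% over all 35116. It was 68.4% over the 9 higher members with an entry and 79.6% over the 3 lower ones. Over the 13 tested without a call it was 75.2%, and over the 14 too low to be tested 40.8%. CCGCCC was in 8 of the 9 higher, 3 of the 3 lower, 11 of the 13 uncalled and 4 of the 14 untested members. The AP-1 letters TGAGTCA, on both strands, were found in 1 of the 39 windows, that of MMP7, beside 4.20% of all windows. The ETS core GGAA, on both strands, was in 38 of the 39 and in 92.7% of all windows. MMP1, MMP3 and MMP17 had no entry.

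The membrane-type MMPs, which are anchored at the cell surface and act on matrix next to the cell, included 3 of the 4 MMPs that rose. MMP15 (ENSG00000102996, chromosome 16, 58025754 to 58046901, plus strand), a transmembrane form that can activate MMP2, had 63.7, 51.0 and 46.7 CPM in ALDH_High and 7.99, 5.99 and 6.51 CPM in ALDH_Low. The 2 groups lay far apart relative to the spread within each, with a log2 fold change of 2.97 (SE 0.17; adjusted p 5.06e-06, edgeR). MMP17 (ENSG00000198598, chromosome 12, 131828393 to 131851783, plus strand), a form held by a lipid anchor, had 28.9, 26.6 and 24.6 CPM in ALDH_High and 1.95, 2.88 and 3.59 CPM in ALDH_Low. MMP17 thus differed by a log2 fold change of 3.26 (SE 0.22; adjusted p 1.05e-05, edgeR), with the ALDH_High libraries within a narrow band. MMP16 (chromosome 8, 88032011 to 88328025), another transmembrane form, started from a higher level and rose less, from 61.5 ± 9.80 to 109 ± 5.82 CPM (SD, n = 3; log2 change 0.83 with SE 0.13; adjusted p 0.00178, edgeR).

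MMP14, the best known membrane-type MMP and a direct collagenase, did not pass the threshold. It had 126, 66.6 and 66.6 CPM in ALDH_High and 58.9, 65.9 and 68.9 CPM in ALDH_Low. ALDH_High library 1 alone lay above the rest, and the log2 fold change was 0.42 (SE 0.23; adjusted p 0.240, edgeR) with it and 0.063 (edgeR adjusted p 0.708) without it. With low-count genes kept in the fit, MMP14 passed the threshold (0.43, edgeR adjusted p 0.0173). MMP14 itself was not scarce, with at least 1918 counts in every library, and its groups overlapped. MMP24 had 1.5 ± 0.426 and 1.08 ± 0.309 CPM (SD, n = 3; edgeR adjusted p 0.402), and MMP25 was too low to be tested. The summed TPM of the membrane-type genes was 113, 93.1 and 94.0 in ALDH_High and 40.5, 44.2 and 39.8 in ALDH_Low. Their composition shifted too: MMP14 made up 57.7 ± 3.58% of it in ALDH_Low and 32.1 ± 6.45% in ALDH_High, while MMP17 made up 6.17 ± 1.72% and 25.4 ± 2.76% and MMP15 5.75 ± 1.11% and 19.3 ± 0.834% (SD, n = 3).

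Of the gelatinases, which cut denatured collagen and basement membrane collagen, neither passed the threshold. MMP2 was the most abundant MMP on the TPM scale, at 62.0 ± 11.9 TPM in ALDH_High and 69.3 ± 12.6 TPM in ALDH_Low (SD, n = 3). Its CPM overlapped between the groups, with 166, 110 and 106 in ALDH_High and 172, 135 and 129 in ALDH_Low (log2 change -0.19 with SE 0.18; adjusted p 0.526, edgeR). MMP9 was scarce, with 6 to 39 counts in ALDH_High and 14 to 20 in ALDH_Low, and its log2 fold change of 0.36 (SE 0.67; adjusted p 0.764, edgeR) became -0.84 (edgeR adjusted p 0.292) without ALDH_High library 1. MMP9 and MMP24 lie on chromosome 20, whose 356 protein-coding genes tested had a median log2 fold change of 0.28.

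The secreted collagenases and stromelysins, made mainly when cells are stimulated, lie on chromosome 11, apart from the stromelysin-like MMP11 on chromosome 22. Their chromosome 11 cluster holds 9 members between 102520508 and 102955732, all on the minus strand. Of its 3 tested members, 1 rose, 1 fell and 1 did not pass the threshold. MMP8, a collagenase best known from neutrophils, had 2.92, 4.37 and 5.98 CPM in ALDH_High and 0.311, 0.401 and 0.395 CPM in ALDH_Low. All MMP8 values in ALDH_High were at least 7-fold above those in ALDH_Low, with 74 to 204 counts against 11 to 12 (log2 change 3.58 with SE 0.36; adjusted p 9.40e-05, edgeR). MMP3 (stromelysin; 102835801 to 102843609) went the other way, with 1.70, 1.30 and 0.997 CPM in ALDH_High and 6.12, 3.61 and 3.85 CPM in ALDH_Low. The groups did not overlap for MMP3, whose log2 fold change was -1.78 (SE 0.31; adjusted p 0.00277, edgeR).

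MMP1, the interstitial collagenase, lies between MMP8 and MMP3 (102789401 to 102798160). It had 7.22, 3.30 and 2.81 CPM in ALDH_High and 15.3, 5.55 and 6.43 CPM in ALDH_Low, so that the groups overlapped. Its log2 fold change was -1.05 (SE 0.44; adjusted p 0.13, edgeR), and in both groups library 1 was the highest. With the replicate number as a block, MMP1 passed the threshold (-1.01, edgeR adjusted p 0.00415), and it also passed without ALDH_High library 1 (-1.56, edgeR adjusted p 0.0288). MMP1 passed as well with low-count genes kept in the fit (-1.04, edgeR adjusted p 0.000267). Without ALDH_Low library 1, the highest of its group, the value was -0.43 (edgeR adjusted p 0.533). MMP13, the third collagenase, had 2 to 7 counts in ALDH_High and 45, 5 and 9 in ALDH_Low and was too low to be tested. MMP7, MMP10, MMP12, MMP20 and MMP27 of the same cluster were also too low, with at most 22 counts in any library, and MMP20 and MMP27 had 0 in all. With low-count genes kept in the fit, MMP13 passed the threshold in edgeR (log2 change -2.02, adjusted p 0.0112), but it did not in DESeq2 (adjusted p 0.129).

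**Figure D4:**
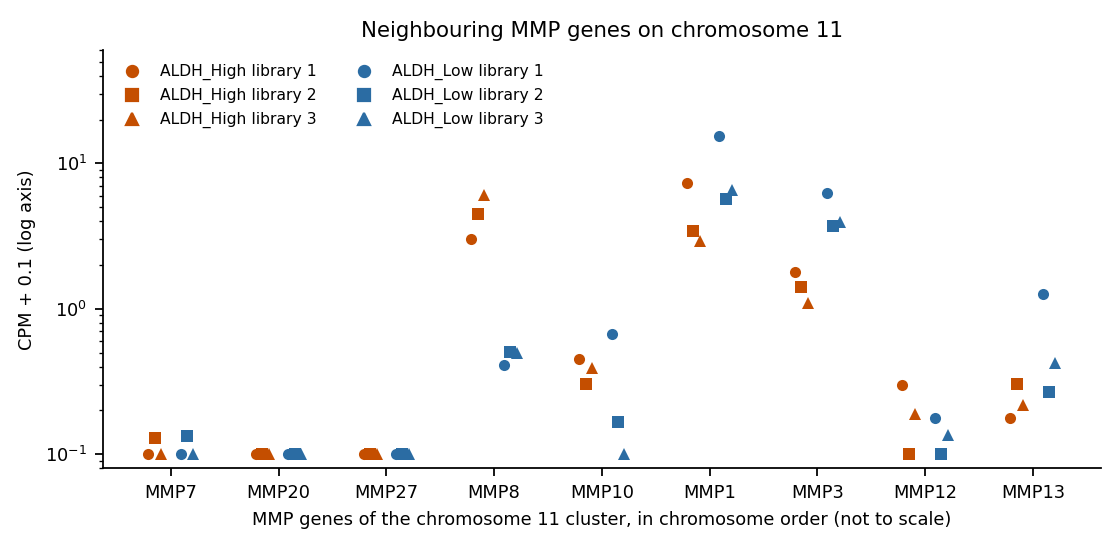
CPM + 0.1 (log axis) of the 9 MMP genes of the chromosome 11 cluster, placed in chromosome order and not to scale, with orange for ALDH_High and blue for ALDH_Low libraries. MMP8 is higher in all ALDH_High libraries, MMP3 is lower in all of them, and the points of MMP1 overlap between the groups.

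The remaining MMPs were scarce. MMP19 had 2.60 ± 0.117 CPM in ALDH_High and 3.71 ± 0.857 in ALDH_Low (SD, n = 3; edgeR adjusted p 0.179), MMP11 had 0.801 ± 0.255 and 0.866 ± 0.318 CPM (edgeR adjusted p 0.866), and MMP23B had 0.730 ± 0.308 and 0.367 ± 0.164 CPM (edgeR adjusted p 0.171). The counts of MMP23B are uncertain because a near-identical copy, MMP23A, lies beside it. MMP28, or epilysin, missed the filter but showed 2 counts over the ALDH_High libraries and 37 over the ALDH_Low libraries. The ratio for MMP28 was 18.1 in favour of ALDH_Low per depth, with an exact 95% counting interval of 4.66 to 155. Where low-count genes were kept in the fit, MMP28 passed the threshold (edgeR adjusted p 0.000450), as it did in DESeq2 (adjusted p 0.0185). MMP21 had at most 2 counts in any library and MMP26 had 0 in all.

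Among the ADAMs, the largest rises were those of ADAM23 and ADAM12. ADAM23 (ENSG00000114948, chromosome 2, 206443532 to 206621127, plus strand) lacks a working zinc site and binds integrins and neuronal ligands. It had 32.6, 35.5 and 34.0 CPM in ALDH_High and 7.57, 5.19 and 4.60 CPM in ALDH_Low (log2 change 2.55 with SE 0.19; adjusted p 1.81e-05, edgeR). ADAM12 (ENSG00000148848, chromosome 10, 126012381 to 126388477, minus strand), an active protease known to release HB-EGF and cut IGF-binding proteins, had 24.5, 30.6 and 27.9 CPM in ALDH_High and 4.62, 6.56 and 3.13 CPM in ALDH_Low. Both genes were tightly grouped in ALDH_High, and the log2 fold change of ADAM12 was 2.54 (SE 0.24; adjusted p 7.09e-05, edgeR). ADAM11, a further member without a working zinc site, rose from 4.68 ± 1.13 to 9.47 ± 1.41 CPM (SD, n = 3; log2 change 1.02 with SE 0.23; adjusted p 0.0104, edgeR). Of the 4 tested ADAMs without a zinc site, 2 thus rose and 2, ADAM22 (edgeR adjusted p 0.907) and ADAM32 (0.880), did not pass the threshold.

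The abundant sheddases moved less, and not together. ADAM10, which starts Notch cleavage and sheds many adhesion molecules, had 103, 158 and 117 CPM in ALDH_High and 72.9, 93.2 and 62.4 CPM in ALDH_Low. The groups did not overlap, and the log2 fold change was 0.73 (SE 0.19; adjusted p 0.0193, edgeR). The call was lost without ALDH_High library 2 (0.55, edgeR adjusted p 0.0756), ALDH_Low library 1 (0.71, 0.0676) or ALDH_Low library 3 (0.60, 0.0884), and in limma on TPM (0.76, limma adjusted p 0.0645). ADAM17, the sheddase of TNF and of several EGF receptor ligands, had 42.6 ± 6.05 CPM in ALDH_High and 43.3 ± 1.99 in ALDH_Low (SD, n = 3; log2 change -0.022 with SE 0.13; adjusted p 0.934, edgeR). ADAM15, a sheddase with an integrin-binding sequence and the most abundant ADAM by TPM, fell: it had 287, 226 and 228 CPM in ALDH_High and 363, 437 and 410 CPM in ALDH_Low. Its log2 fold change was -0.71 (SE 0.13; adjusted p 0.00353, edgeR), and its share of the summed ADAM TPM was 43.5 ± 5.66% in ALDH_High and 62.2 ± 3.25% in ALDH_Low (SD, n = 3).

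ADAM9 did not overlap between the groups, at 98.0 ± 13.3 and 123 ± 10.4 CPM (SD, n = 3), but did not pass the threshold (log2 change -0.33 with SE 0.13; adjusted p 0.108, edgeR). ADAM19 depended on 1 library, with 95.8, 38 and 30.4 CPM in ALDH_High and 54.8, 49.7 and 38.3 CPM in ALDH_Low. Its log2 fold change was 0.20 (SE 0.36; adjusted p 0.759, edgeR) with ALDH_High library 1 and -0.46 (edgeR adjusted p 0.0830) without it. ADAM8, a sheddase known from leukocytes, had 4.30 ± 1.15 and 4.09 ± 0.808 CPM (SD, n = 3; edgeR adjusted p 0.877). The 9 ADAMs that were too low to be tested, among them the sperm proteins ADAM2 and ADAM18, had at most 27 counts in any library. ADAM28 held that highest count, with 1, 9 and 7 counts in ALDH_High and 27, 4 and 27 in ALDH_Low, so that the groups overlapped. With low-count genes kept in the fit, ADAM28 passed the threshold in edgeR (log2 change -1.75, adjusted p 0.0265), but not in DESeq2 (adjusted p 0.18).

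ADAMTS proteases are secreted and grouped by substrate. Of the 7 that are known to cut hyalectans (aggrecan, versican and their relatives), 3 rose and 4 did not pass the threshold. ADAMTS4 (ENSG00000158859, chromosome 1, 161184302 to 161199054, minus strand), a main aggrecanase, had 58.6, 25.5 and 17.6 CPM in ALDH_High and 5.68, 2.41 and 4.03 CPM in ALDH_Low. Its ALDH_High libraries differed more than 3-fold among themselves, yet each lay above all ALDH_Low libraries (log2 change 3.05 with SE 0.45; adjusted p 0.000983, edgeR). Without ALDH_High library 1 the log2 fold change of ADAMTS4 was 2.42 (edgeR adjusted p 0.000737).

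ADAMTS8 and ADAMTS20 rose from very low levels. ADAMTS8 had 41, 57 and 25 counts in ALDH_High and 4, 0 and 5 in ALDH_Low (log2 change 3.77 with SE 0.67; adjusted p 0.00310, edgeR). ADAMTS20, which is known for its part in the spread of melanoblasts in the embryo, had 26, 56 and 46 counts in ALDH_High and 12, 9 and 9 in ALDH_Low (log2 change 2.09 with SE 0.36; adjusted p 0.00245, edgeR). ADAMTS1 was the most abundant of these 7 genes by TPM in both groups and did not pass the threshold, at 37.6 ± 1.51 CPM in ALDH_High and 44.2 ± 5.14 in ALDH_Low (SD, n = 3; edgeR adjusted p 0.227). ADAMTS5, the other main aggrecanase, had only 3 to 18 counts in any library (edgeR adjusted p 0.163). ADAMTS9 (edgeR adjusted p 0.185) and ADAMTS15 (0.184) also missed it, with log2 fold changes of 1.03 and 0.34, although ADAMTS9 passed it where low-count genes were kept in the fit; ADAMTS15 and ADAMTS8 are neighbours on chromosome 11.

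The ADAMTS genes of other substrates moved both ways. ADAMTS12 (ENSG00000151388, chromosome 5, 33523535 to 33892019, minus strand), which cuts cartilage oligomeric matrix protein, had 21.5, 18.1 and 14.5 CPM in ALDH_High and 75.6, 54.3 and 46.0 CPM in ALDH_Low. It fell by 1.70 on the log2 scale (SE 0.21; adjusted p 0.000299, edgeR), and its share of the summed ADAMTS TPM was 11.2 ± 0.926% in ALDH_High and 35.2 ± 3.66% in ALDH_Low (SD, n = 3). ADAMTS7, its closest relative by substrate, fell from 9.08 ± 2.81 to 5.05 ± 0.498 CPM (SD, n = 3; log2 change -0.85 with SE 0.24; adjusted p 0.0324, edgeR). That call was lost without ALDH_Low library 1 (-0.58, edgeR adjusted p 0.141) and in 3 other fits that each left out 1 library: ALDH_High library 2 (-0.75, 0.120), ALDH_High library 3 (-0.89, 0.0689) and ALDH_Low library 2 (-0.88, 0.0722). It was also lost in limma on TPM. Counts of ADAMTS7 are uncertain, since several pseudogene copies of it exist and MORF4L1 (log2 change -0.27; adjusted p 0.111, edgeR) overlaps it on the opposite strand.

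ADAMTS16 rose from 2.72 ± 0.764 to 8.16 ± 0.983 CPM (SD, n = 3; log2 change 1.58 with SE 0.24; adjusted p 0.00135, edgeR). ADAMTS17 had 4.38, 6.89 and 5.31 CPM in ALDH_High and 2.31, 3.95 and 1.51 CPM in ALDH_Low (log2 change 1.09 with SE 0.34; adjusted p 0.0459, edgeR). The ADAMTS17 groups only just separated, and the call was lost without ALDH_High library 2 (0.92, edgeR adjusted p 0.156), ALDH_High library 3 (1.14, 0.0845), ALDH_Low library 1 (1.03, 0.13) or ALDH_Low library 3 (0.83, 0.140). It was also lost with upper-quartile scaling and in limma on TPM. Of the procollagen N-propeptidases, which trim fibrillar procollagens, ADAMTS3 (edgeR adjusted p 0.108) and ADAMTS2 (0.748) did not pass the threshold, and ADAMTS14 had at most 3 counts in any library. ADAMTS18 and ADAMTS19 were also too low, with at most 4 and 1 counts. ADAMTS6, ADAMTS10 and ADAMTS13 had adjusted p between 0.413 and 0.990 in edgeR. The summed ADAMTS TPM was 44.3 ± 2.87 in ALDH_High and 44.4 ± 8.01 in ALDH_Low (SD, n = 3).

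Genes that act with these proteases were read from 9 lists. Their counts stand beside 20.6% of all genes tested past the threshold (10.8% higher and 9.83% lower). The share in a list ran from 0% for the proprotein convertases to 77.8% for the ADAM partners. The transcription factors (30.8% of 13 tested) and the ADAMTS-like proteins (33.3% of 6 tested) lay nearest to the share of all genes. No list was tested as a set, and the lists were chosen with earlier results of these data known. Of 9 partners that carry ADAM10 or ADAM17 to the cell surface, 7 passed the threshold, 4 higher and 3 lower, with a median log2 fold change of -0.063 beside -0.013 for all genes. The ADAM10-binding tetraspanins differed among themselves. TSPAN15 had 2.84 ± 0.340 CPM in ALDH_High and 0.0931 ± 0.105 in ALDH_Low (SD, n = 3; log2 change 4.76 with SE 0.59; adjusted p 0.000357, edgeR). Its counts were 79, 102 and 84 in ALDH_High and 8, 0 and 2 in ALDH_Low, so it passed the filter through ALDH_High alone. TSPAN33 rose from 2.40 ± 0.574 to 8.04 ± 1.65 CPM (log2 change 1.74; adjusted p 0.000977, edgeR), while TSPAN10 fell from 4.56 ± 0.661 to 1.32 ± 0.338 CPM (-1.79, edgeR adjusted p 0.00133). None of the 4 proprotein convertases, which cut the prodomain of many ADAMs and membrane-type MMPs, passed the threshold in edgeR (adjusted p from 0.0627 for PCSK6 to 0.634 for PCSK7), and 1 of the 4, PCSK6, had an unadjusted p below 0.05.

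Of 12 tested regulators of MMPs other than TIMPs, 5 rose and 1 fell (median log2 fold change 0.54). ITGB3, the integrin subunit that with ITGAV forms a docking receptor for MMP2, rose from 10.2 ± 4.91 to 127 ± 66.6 CPM (SD, n = 3; log2 change 3.63 with SE 0.405; adjusted p 0.000186, edgeR), with ALDH_High library 1 at 204 and the other ALDH_High libraries at 89.3 and 88.2. THBS2, a thrombospondin that helps clear MMP2, rose (log2 change 3.21; adjusted p 0.000380, edgeR), and LRP1, the endocytic receptor that takes up several MMPs and TIMP3, fell from 147 ± 12 to 73.1 ± 14.0 CPM (-1.0, edgeR adjusted p 0.000885). THBS2 had 68 to 93 counts in ALDH_High and 8 to 10 in ALDH_Low, and passed the filter through ALDH_High alone. RECK, a membrane-bound MMP inhibitor, did not pass the threshold (log2 change 0.41; adjusted p 0.246, edgeR). Of the 6 tested ADAMTS-like proteins, which share the non-catalytic domains, 2 fell: ADAMTSL1 fell from 38.7 ± 5.28 to 5.13 ± 1.58 CPM (-2.92, edgeR adjusted p 1.75e-05), and ADAMTSL4 from 26.7 ± 8.76 to 9.46 ± 0.819 CPM (-1.50, edgeR adjusted p 0.000914).

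Among substrates, 3 of the 4 hyalectans were tested, of which 1 rose and 1 fell. BCAN did not pass the threshold (log2 change -0.63; adjusted p 0.400, edgeR), and NCAN was too low to be tested. ACAN, or aggrecan, had 19, 12.4 and 11.3 CPM in ALDH_High and 0.571, 0.201 and 0.539 CPM in ALDH_Low (log2 change 4.99 with SE 0.36; adjusted p 1.55e-05, edgeR). With 22, 6 and 15 counts in ALDH_Low, ACAN did not reach the filter's level in every library of that group. VCAN, or versican, fell from 5.88 ± 2.54 to 2.29 ± 0.373 CPM (SD, n = 3; log2 change -1.36; adjusted p 0.0172, edgeR). Of the 7 tested matrix substrates of MMPs, 4 rose and 1 fell (median log2 fold change 1.03). FN1, or fibronectin, rose from 44.5 ± 6.14 to 253 ± 13.4 CPM (2.51, edgeR adjusted p 3.98e-06), TNC, or tenascin C, from 365 ± 32.6 to 1762 ± 207 CPM (2.27, edgeR adjusted p 4.69e-06), and COL4A1, a basement membrane collagen chain, from 130 ± 13.0 to 280 ± 12.8 CPM (1.11, edgeR adjusted p 0.000109).

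Of the 7 tested EGF-family ligands, which ADAM sheddases release, 1 rose and 3 fell (median log2 fold change -0.16). HBEGF fell from 48.3 ± 4.50 to 18.6 ± 0.687 CPM (log2 change -1.38; adjusted p 4.40e-05, edgeR) and AREG from 7.48 ± 0.970 to 2.61 ± 0.695 CPM (-1.52, edgeR adjusted p 0.00191), while TGFA rose from 174 ± 23.5 to 307 ± 52.0 CPM (0.82, edgeR adjusted p 0.00346; all SD, n = 3). Of 19 other sheddase substrates tested, 3 rose and 6 fell (median -0.32), with the smallest p for L1CAM (-1.03, edgeR adjusted p 0.000263), MET (-1.27, 0.000338) and ALCAM (-1.52, 0.000883). Of the 13 transcription factors known to act on MMP promoters, 1 rose and 3 fell (median -0.55). FOSL2, an AP-1 subunit, fell from 152 ± 10.4 to 55.6 ± 9.86 CPM (-1.45, edgeR adjusted p 9.11e-05), RUNX2 from 3.86 ± 1.35 to 0.943 ± 0.0387 CPM (-2.03, edgeR adjusted p 0.00158) and JUNB from 126 ± 7.59 to 72.6 ± 20.7 CPM (-0.79, edgeR adjusted p 0.0104).

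**Figure D5:**
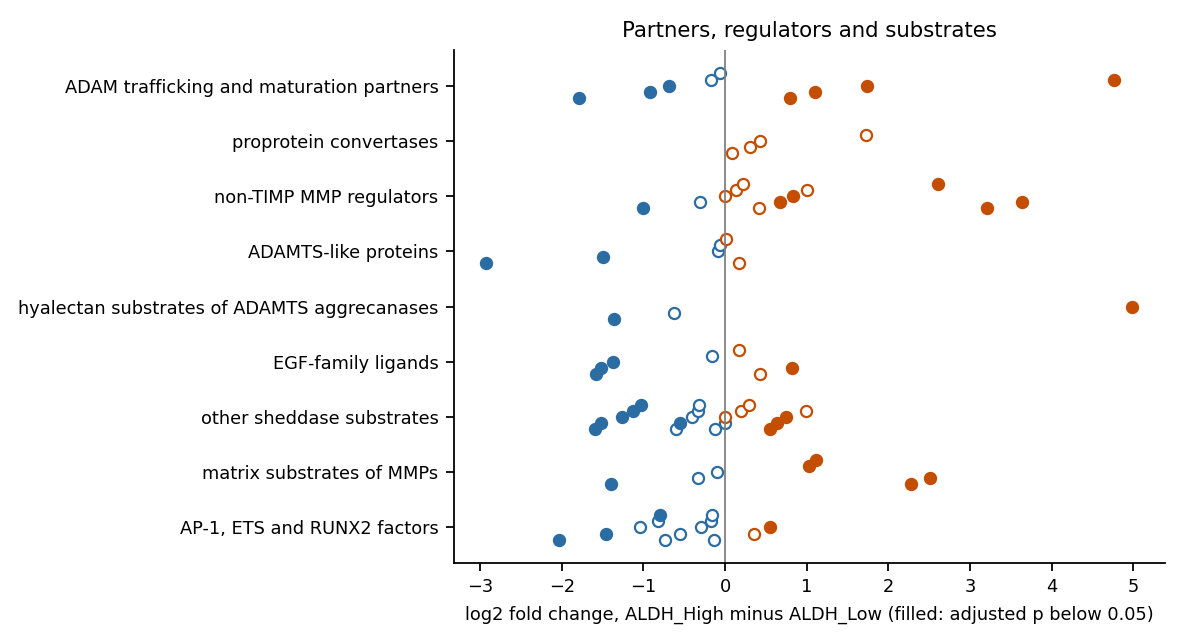
Each point is a tested gene of 1 of the 9 lists of partners, regulators and substrates, placed by its log2 fold change (x axis, ALDH_High minus ALDH_Low); filled points have an edgeR adjusted p below 0.05. ACAN (4.99) and TSPAN15 (4.76) lie farthest to the right and ADAMTSL1 (-2.92) farthest to the left. In ALDH_Low, ACAN had only 6 to 22 counts and TSPAN15 0 to 8.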

How the data were processed

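RNA of 6 libraries (3 ALDH_High, 3 ALDH_Low) was analysed. The authors deposited whole-number counts per gene, treated here as rounded estimated counts because 133 to 177 genes per library have a count of 0 beside a TPM above 0; counts and TPM from different tools could give the same pattern. The authors also deposited TPM values, which correct for gene length; the lengths are not given in the sources used here. The submitters' processing notes name GRCh38, FastQC 0.11.3, STAR 2.5.1b, HTSeq 0.6.1 and DESeq2; which tool made which table is not given in the sources used here.

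Genes were filtered with filterByExpr, scaled by TMM and tested over the whole table with edgeR 4.0.16 (glmQLFit and glmQLFTest, two-sided; R 4.3.3), with Benjamini-Hochberg adjustment over all genes tested and a threshold of 0.05. The code was tested on simulated data. Each SE was obtained as the size of the log2 fold change over the root of the F statistic. Intervals cover counting error only. Chi-square statistics per degree of freedom of library pairs within groups were at least 12.1, so no library was counted as a repeat.

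The main fit held the group alone and was unpaired, and the replicate number entered as a block only among the alternatives. Deviations from the group mean correlated at 0.194, 0.132 and 0.106 between libraries of the same number (log2 of CPM + 0.5). With edgeR's own log2 CPM the second value was 0.076. Libraries of different numbers were not compared in this way, so these values cannot show whether the numbers mark pairs. The labels give no shared day or sort. Alternatives were DESeq2 1.42.0, limma 3.58.1 on log2 TPM, other scalings and filters, the block, and each library left out.

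The named genes were all members past the threshold, well-known members chosen by name, the most abundant of each family, and up to 3 genes of smallest p per list. Genes named outside this rule (other members, PCSK6, PCSK7, RECK, overlapping genes and cell markers) were chosen after their values were seen. Members and lists were chosen with earlier results of these data known. Protein sequences were not used here. One gene that overlaps a member is not reported here.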

Additional observations from a re-analysis of the deposited data

How the results depend on the processing

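Of the 19 members past the threshold, 14 kept the call in all alternatives that gave a value, and none changed sign. ADAMTS8 and ADAMTS20 are among the 14, but they had a value in only 12 of the 15 alternatives, since stricter filters removed them. ADAM10, ADAMTS7, ADAMTS17 and TIMP1 lost the call without at least 1 library, and also in at least 1 limma fit on all libraries. ADAM11 lost it in limma only. ADAMTS17 and TIMP1 also lost it with upper-quartile scaling of all libraries. Over all genes, the counts higher and lower were 1060 and 870 at an adjusted p below 0.01, 1004 and 954 with a log2 change of at least 1 in size, and 1155 and 851 in limma on log2(TPM + 1) without a filter. With a mean TPM of at least 1, limma called 1047 lower (TPM + 1) and 1051 lower (TPM + 0.1). Leaving out 1 library at a time gave 1306 to 2172 higher and 1073 (without ALDH_High library 2) to 2049 lower (without ALDH_High library 1), and 12 to 14 members higher and 3 to 6 lower. Members lower were 2 with a log2 change of at least 1 in size and 8 without a filter. The members' median of 0.36 was 0.17 without a filter, 0.18 in DESeq2, 0.036 in limma on log2(TPM + 1) without a filter, and 0.16 (without ALDH_High library 1) to 0.46 with 1 library left out. These settings test other numbers of genes or libraries; the cause of each shift was not tested.

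Among 11 named members without a call, the sign changed for 5; the other uncalled members were not followed singly. Without a filter on low counts, 7 further members passed (ADAM28, ADAMTS9, MMP1, MMP13, MMP14, MMP28 and TIMP4). That fit also gave smaller adjusted p to members already called, such as ADAM10, ADAM11 and ADAM12. With 1 library left out, ADAM17 ranged from -0.10 to 0.10, ADAM19 from -0.46 to 0.50, ADAM8 from -0.081 to 0.29, MMP9 from -0.84 to 0.86 and TIMP2 from -0.26 to 0.037; in limma ADAM17 was 0.019. With the replicate block, 1947 genes were higher and 1801 lower, and MMP1 was the member whose call changed. The 23 members below the filter had at most 45 counts in any library, and 5 of them had 0 in all; what difference this depth could show was not tested.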
